A study of Mus musculus with 102 samples.

Results

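Regions of mouse embryonic stem (ES) cells that carried trimethylation of histone H3 lysine 4 (H3K4me3) without monomethylation of the same residue (H3K4me1) and without acetylation of histone H3 lysine 27 (H3K27ac) are described here. They were chosen from the authors' deposited region table of 129/Ola ES cells as every position with a row for H3K4me3 and with no row for H3K4me1 or H3K27ac. The rule found 753 of 67697 regions, which are 10.1% of the 7453 regions with H3K4me3 and without H3K4me1. The other 6700 of these H3K4me3-only regions had H3K27ac listed and served as the main comparison. A second comparison was with the 2158 regions that carried both H3K4 marks and no H3K27ac. Since the rule used the listing of the 3 histone marks, that listing is a description of the members and not a result.

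The study profiled chromatin proteins and histone marks by chromatin immunoprecipitation with sequencing (ChIP-seq), with the question of how chromatin regulators co-occur with H3K4me1 at enhancers and depend on it. In 129/Ola ES cells, which carry no stated mutation, the 17 chromatin-associated factors used here have 2 libraries each, apart from 2 factors with 3 libraries and SSRP1 with 1. H3K4me1, H3K4me2 and H3K4me3 were also measured in R1 ES cells of the 129SV strain that were wild-type or MLL3/4 double catalytic dead, with 2 libraries per mark and line. All lines were grown on feeder cells, and the protocol for the 129/Ola cells adds passages without feeders before crosslinking. Whether the catalytic-dead line is 1 clone is not stated. The tables give 1 value per factor, or per mark and line, without read counts, so the depth and the spread between libraries are unknown. No test between conditions was possible, and differences are given as descriptions, with 95% Wilson intervals for shares, which cover counting error over regions only, and with ranges over the 20 chromosomes that hold 10 or more members.

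As background, H3K4me3 marks the start sites of genes, is laid down mainly by SET1 and MLL1/2 complexes, and is found both at active promoters and at repressed developmental promoters of ES cells. H3K27ac is placed by p300 and CBP and marks active promoters and enhancers. H3K4me1 is placed at enhancers mainly by MLL3 and MLL4 and also flanks the H3K4me3 of promoters. The authors' lists of active and of poised enhancers, which hold only regions with H3K4me1, contained 0 of the members.

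H3K4me3-only regions without H3K27ac were narrow. Their median width was 771 bp, with quartiles of 342 and 1517 bp and a range of 181 to 10341 bp. With H3K27ac the median was 1570 bp, with quartiles of 946 and 2343 bp. The median was lower without H3K27ac on 20 of 20 chromosomes, where it ran from 391 to 1421 bp against 987 to 1882 bp. Narrow regions were frequent among the members: 277 of 753 (36.8%) were under 500 bp, against 10.4% with H3K27ac. At the other end, 109 members (14.5%) were wider than 2000 bp, against 34.8% with H3K27ac. Both-mark regions without H3K27ac were narrower still, with a median of 538 bp.

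**Figure D1:**
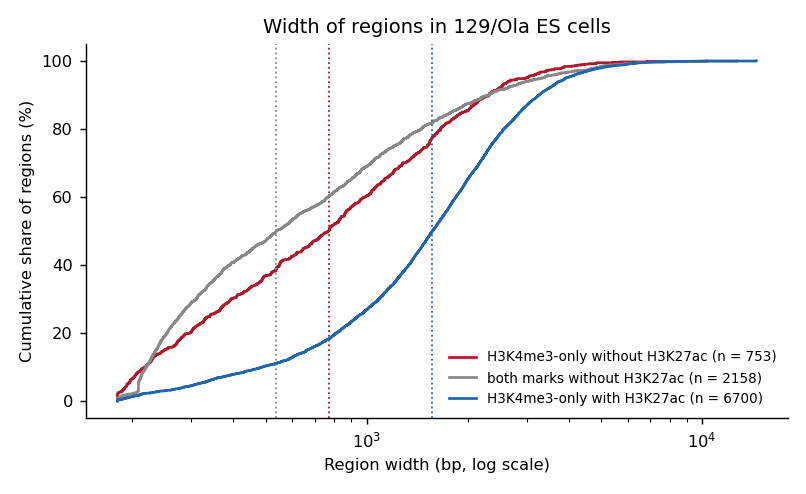
Cumulative share of regions (%) against region width (bp, log scale) for 3 classes of regions in 129/Ola ES cells, with a dotted line at each median. The curve of the 753 H3K4me3-only regions without H3K27ac (median 771 bp) lies between that of the both-mark regions without H3K27ac (538 bp) and that of the H3K4me3-only regions with H3K27ac (1570 bp).

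The members carried fewer of the 17 factors than the regions of both comparisons. On average 4.77 ± 3.31 factors were listed per region (SD over 753 regions, which are not replicates), against 8.16 ± 3.99 with H3K27ac and 6.83 ± 3.56 at both-mark regions without H3K27ac. Both-mark regions with H3K27ac had 9.54 ± 3.71. Regions with H3K4me1 and no H3K4me3 had fewer than the members, 4.53 ± 3.21 with H3K27ac and 2.17 ± 2.40 without it. A factor is listed only at a log2 enrichment of 0.585 or more, which is a fold of 1.5, so a factor without a row either fell short of that limit or has no measurement at the region. The chromosome means ran from 3.39 to 6.41 in the members and from 7.59 to 9.01 with H3K27ac, so the ranges did not overlap. No factor at all was listed at 71 members (9.43%), against 126 regions (1.88%) with H3K27ac. The share was 2.64% at both-mark regions without H3K27ac and 0.916% at those with it. Regions with H3K4me1 and no H3K4me3 had no factor in 30.8% of cases without H3K27ac and in 8.74% with it. A lack of factors is thus not particular to the members. Between these ends, 319 members had 1 to 4 factors, 258 had 5 to 8 and 82 had 9 to 11. At the upper end, 12 or more factors were listed at 23 members (3.05%), against 23.6% with H3K27ac.

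Each of the 17 factors was listed less often at the members than at H3K4me3-only regions with H3K27ac. The mean difference in share was -19.9 points (SD over the factors 10.7), and on the 20 chromosomes it ran from -27.1 to -11.5 points. The Wilson intervals of the 2 shares were apart for 16 of the factors, with WSTF as the exception. With a stricter limit, a log2 enrichment of 1 or more, 15 of the 17 factors were less frequent at the members and the mean difference was -10.4 points; WSTF (7.84% against 6.52%) and PHF5A (7.44% against 6.10%) then had the opposite sign. MED12 (10.5% against 11.9%) and PHRF1 (10.1% against 12.1%) were then nearly as frequent in both classes. Against all 67697 regions, at the limit of listing, 13 factors were less frequent at the members and 4 more frequent. The 4 were RUVBL2 (48.1% against 38.5%), SAP18 (45.8% against 42.1%), WSTF (11.7% against 9.47%) and SRSF2 (54.6% against 54.0%). Factors share regions, and the input libraries behind their values are not given, so the 17 differences are not independent of each other.

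RUVBL1 and RUVBL2, paired AAA+ ATPases that serve the INO80, SRCAP and TIP60 complexes, had the largest differences at the limit of listing. With a log2 enrichment of 1 or more, RUVBL2 still had the largest (-29.6 points), and RUVBL1, at -12.8 points, came after SAP18 (-24.7), BAF155 (-22.4) and SNF2H (-17.2). RUVBL2 was listed at 362 members (48.1%, interval 44.5 to 51.6%) and at 85.4% of the regions with H3K27ac, a difference of -37.4 points that had the same sign on 20 of 20 chromosomes. RUVBL1 was listed at 29.2% against 64.6%. Both proteins together were found at 20.5% of the members, against 60.9% with H3K27ac. Among members with RUVBL1, RUVBL2 was also listed at 70.0%, against 94.2% with H3K27ac. With or without RUVBL1, the shares of RUVBL2 were 48.1% and 85.4%. RUVBL2 thus held the first place among the factors at the regions with H3K27ac and the second place among the members.

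SRSF2, an SR protein of pre-mRNA splicing, was the factor listed most often among the members. It was present at 411 of them (54.6%, interval 51.0 to 58.1%), against 73.3% with H3K27ac. Over all 67697 regions SRSF2 was listed at 54.0%, also the highest share of the 17 factors, so this place is not particular to the members. Its relative SRSF1 was listed at 39.0% against 61.6%. SAP18, a subunit of the Sin3 histone deacetylase complex and of the ASAP splicing complex, was next after RUVBL2, with 45.8% against 76.8%. PHF5A, a small PHD-like protein of the splicing factor SF3b, had one of the smallest differences, 16.7% against 20.7%, and its share was lower without H3K27ac on 15 of 20 chromosomes.

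The subunits of Mediator, which links transcription factors to RNA polymerase II, were each less frequent in the members. MED1 was listed at 26.8% against 55.3%, MED12 of the kinase module at 22.4% against 37.4%, and SUR2 (MED23) at 21.4% against 40.6%. At least 1 of the 3 subunits was listed at 46.6% of the members, against 73.2% with H3K27ac. All 3 were listed at 41 members (5.44%), against 16.8%. Where MED12 was present, MED1 was also listed at 46.8% of the members and at 69.9% of the regions with H3K27ac. With or without MED12, the shares of MED1 were 26.8% and 55.3%. SMC3, a core subunit of cohesin, was listed at 30.9% against 56.9%.

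Among the BAF and ISWI remodelling proteins, the difference in share was largest for BAF155 (-31.3 points) and smallest for WSTF (-2.06 points). BAF155, a scaffold subunit of BAF, was listed at 170 members (22.6%), against 53.9% with H3K27ac, a ratio of 0.419, the lowest among the 17 factors. BRG1, its ATPase, was listed at 15.7% against 25%. Of the 118 members with BRG1, 35 (29.7%, interval 22.2 to 38.4%) also had BAF155, against 66.7% with H3K27ac. With or without BRG1, the shares of BAF155 were 22.6% and 53.9%. SNF2H, the ATPase of ISWI complexes, was listed at 32.7% against 53.0%. Its partner BAZ1A (ACF1) was listed at 15.7% against 22.5%. WSTF, another partner of SNF2H, was listed at 88 members (11.7%, interval 9.58 to 14.2%) and at 13.7% of the regions with H3K27ac (interval 12.9 to 14.6%). Its share was lower without H3K27ac on 13 chromosomes and higher on 7, and the difference was smaller than its SD over chromosomes of 5.31 points. The same held for BAZ1A (-6.79 points, SD 8.21) and PHF5A (-3.94 points, SD 6.42). With both classes weighted to the same widths, the differences were larger, at -14.7 points for BAZ1A, -11.3 for PHF5A and -5.02 for WSTF. Those of BAZ1A and PHF5A then exceeded these SDs, which were taken without weighting. SNF2H was listed at 34.1% of the members with WSTF, close to the 32.7% over all members. With H3K27ac it was listed at 57.8% of the regions with WSTF (interval 54.5 to 60.9%) and at 53.0% of all regions.

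The histone chaperone subunit SSRP1 of FACT was listed at 17.9% of the members, against 35.6% with H3K27ac. PHRF1, a protein with PHD and RING fingers, was listed at 25.4% against 39.4%. Both stood out in the second comparison: at both-mark regions without H3K27ac SSRP1 was listed at 43.2% and PHRF1 at 48.4%, which left the members -25.3 and -23.0 points lower, the largest differences of that comparison. In all, 16 of the 17 factors were less frequent at the members than at both-mark regions without H3K27ac, by -12.2 points on average (SD over the factors 7.08). RUVBL2, with 48.9% at those regions, differed by only -0.86 points, and WSTF, with 11.4%, by 0.33 points. RUVBL2 thus had a like share in both classes without H3K27ac, and SSRP1 and PHRF1 did not.

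**Figure D2:**
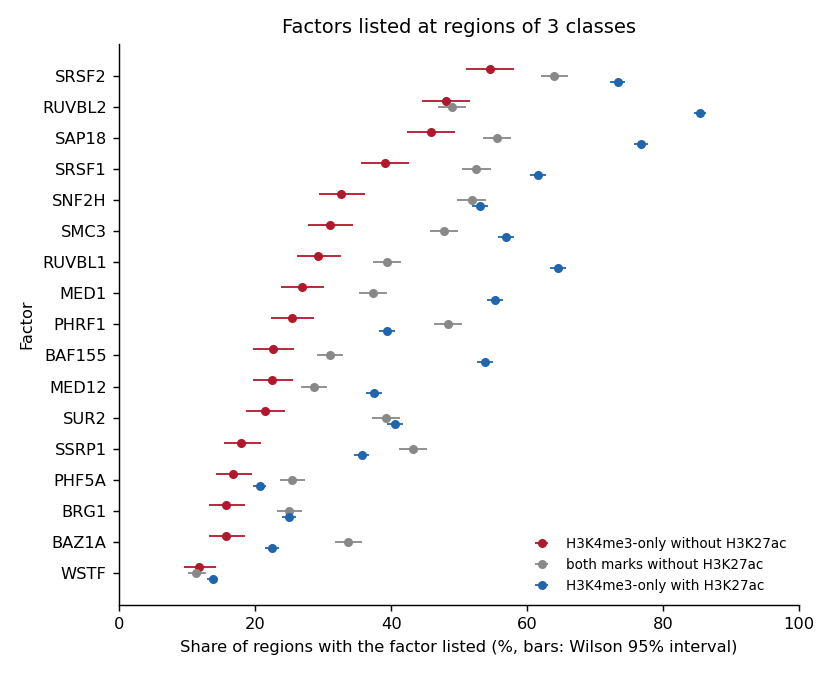
Share of regions (%) at which each of the 17 factors was listed, for H3K4me3-only regions without H3K27ac, both-mark regions without H3K27ac and H3K4me3-only regions with H3K27ac; points are shares and bars 95% Wilson intervals. For 16 factors the interval of the first class lies apart from that of the third, with SRSF2 (54.6%) the most frequent in the first class and RUVBL2 (85.4%) in the third.

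Among the regions where a factor was listed, its median log2 enrichment was lower in the members for 11 factors and higher for 6. These medians cover only values at or above the limit of listing. RUVBL2 had a median of 0.89 in the members and 1.01 with H3K27ac, and BAF155 0.96 against 1.07. In the other direction, WSTF had a median of 1.13 against 0.98.

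Width separated the members further. Across the 753 members Spearman's rho of width with the number of factors was -0.35, and with H3K27ac it was -0.08; these describe regions that share the same libraries and no p is given. All H3K4me3-only regions were split into 10 equal classes by width, and in the narrowest, up to 396 bp, the 226 members had 5.81 ± 3.04 factors. In the widest class, from 3210 bp, the 29 members had 1.10 ± 1.57. With H3K27ac the corresponding means were 7.53 ± 3.44 and 6.36 ± 4.23. The members had fewer factors in 10 of 10 width classes, by between 1.72 and 5.34 factors. With both classes weighted to the same widths, the mean difference in share was -24.6 points (SD over the factors 8.85), larger than the -19.9 points without weighting.

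The 109 members wider than 2000 bp were the poorest in factors. They had 2.58 ± 2.90 factors, and 36 of them (33.0%) had none, whereas the 2334 wide regions with H3K27ac had 7.51 ± 4.23 and 3.64% had none. Within the members, 16 of the 17 factors were less frequent in the wide regions than in those under 500 bp; among regions with H3K27ac this held for 9 of 17. BAZ1A was listed at 26.0% of the narrow members and at 0 of the 109 wide ones, which allows a share of up to 2.75%. BRG1 was listed at 22.4% of narrow members and 1.83% of wide ones, PHF5A at 28.9% and 1.83%, and SSRP1 at 27.1% and 2.75%. RUVBL2, the exception, was listed at 39.4% of the narrow and 39.4% of the wide members, and at 57.2% of those between 500 and 2000 bp. How the authors averaged enrichment over a region is not given in the sources used here.

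**Figure D3:**
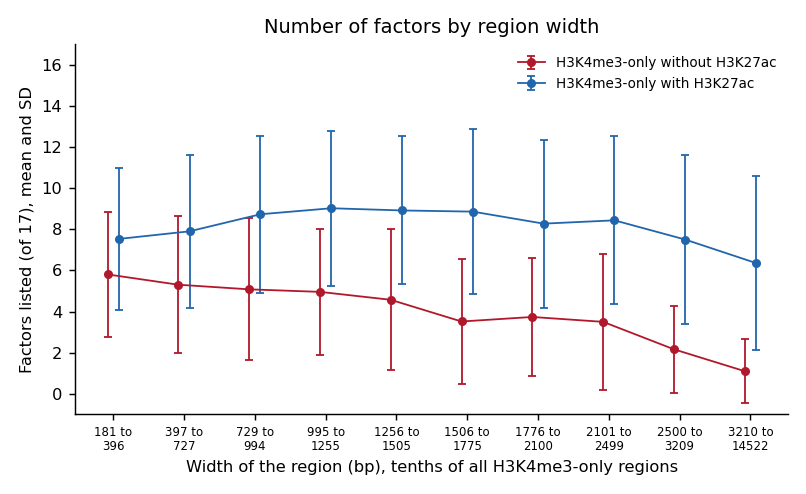
Number of factors listed per region (mean, bars SD over regions) for 10 equal classes of all H3K4me3-only regions by width (bp), without and with H3K27ac. The mean goes from 5.81 to 1.10 across the widths without H3K27ac and lies between 6.36 and 9.02 with it.

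Single factors and bare regions mark the low end of the class. Of the 70 members with 1 factor listed, RUVBL2 was that factor at 13, SMC3 at 11, SAP18 and SRSF2 at 9 each and WSTF at 8. WSTF, the factor listed least often in the members, was thus among the 5 most frequent lone factors. BRG1 and SUR2 were never the lone factor.

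The widest member, chr14:99697858-99708198 (mm9, as are all positions here), spanned 10341 bp and had a single factor listed, SMC3, at a log2 enrichment of 1.20. The next, chr17:15631425-15638294, spanned 6870 bp with no factor. The third, chr11:48666423-48672083, spanned 5661 bp with 7 factors: MED1, SNF2H, RUVBL1, RUVBL2, SRSF1, SRSF2 and SAP18. In wild-type R1 cells their H3K4me3 fold enrichments were 17.1, 18.6 and 18, all above the median of the members given below.

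The members with most factors were narrow. At chr16:57391480-57391905, 426 bp wide, 16 of the 17 factors were listed, all but WSTF, with log2 enrichments from 0.84 for SMC3 to 1.48 for MED1. At chr16:11144025-11144392, 368 bp wide, 15 factors were listed and PHRF1 reached 2.18. The regions with 14 factors each were chr2:6248675-6248907, chr3:87572700-87573092 and chr4:40447983-40448209. WSTF was listed at none of these 5 regions. The chr3 region stood apart in cohesin, with SMC3 at a log2 enrichment of 3.08. The H3K4me3 of these regions in wild-type R1 cells was low, at 3.14, 3.94, 4.61 and 6.12 in the order given, and the region on chr4 overlapped no R1 peak of any of the 3 marks.

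Values on both sides of the H3K27ac limit that chose the members are given here without a test, because the rule used this mark. Just above the limit of listing, and so just outside the class, 38 H3K4me3-only regions had an H3K27ac log2 enrichment below 0.7, and they had 5.42 ± 3.09 factors and a median width of 1148 bp. The 598 regions between 0.7 and 1 had 6.22 ± 3.72 factors, the 3596 between 1 and 2 had 7.53 ± 3.95 and the 2468 at 2 or more had 9.57 ± 3.65. RUVBL2 went from 48.1% where H3K27ac was not listed to 65.8%, 70.1%, 82.3% and 94.1% over these classes. WSTF stayed between 5.26% and 15.8%, with 2 of the 38 regions just above the limit giving the lowest share.

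**Figure D4:**
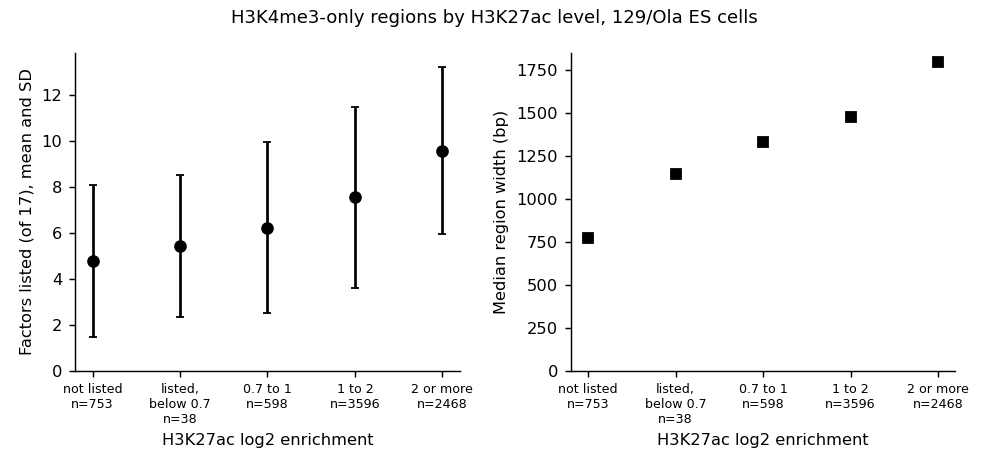
Factors listed per region (left, mean and SD over regions) and median region width in bp (right) for H3K4me3-only regions grouped by H3K27ac log2 enrichment. From the 753 regions with H3K27ac not listed to the 2468 at 2 or more, the mean number of factors goes from 4.77 to 9.57 and the median width from 771 to 1798.5 bp.

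The rule had not used the R1 libraries, though it had used H3K4me1 and H3K4me3, as measured in 129/Ola cells. The R1 values of these marks are thus not independent of the choice of members. An R1 H3K4me3 peak overlapped 673 members (89.4%, interval 87.0 to 91.4%), against 96.6% with H3K27ac and 70.9% at both-mark regions without it, at 1 bp of overlap or more. An R1 H3K4me2 peak overlapped 680 members (90.3%), against 96.6%. H3K4me1, absent from the members in 129/Ola cells by the rule, had an R1 peak at 553 members (73.4%, interval 70.2 to 76.5%). The share was 89.8% with H3K27ac, where the rule had also excluded it. At both-mark regions without H3K27ac, which carry H3K4me1 in 129/Ola cells, it was 81.6%. The gaps to the regions with H3K27ac went with width: with both classes weighted to the same widths, the shares were 88.3% and 87.9% for H3K4me1, 96.6% and 95.7% for H3K4me2, and 96.3% and 95.7% for H3K4me3, without and with H3K27ac. Most H3K4me3-only regions of 129/Ola cells thus had an H3K4me1 peak in the R1 tables. Which of the lines a peak was called in is not given, and strain, culture and processing differ between the datasets and cannot be told apart.

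All 3 marks overlapped 544 members (72.2%), against 89.5% with H3K27ac. H3K4me2 and H3K4me3 without H3K4me1 were found at 117 (15.5%, median width 365 bp). None of the 3 marks overlapped 59 members (7.84%), against 2.78% with H3K27ac and 10.7% at both-mark regions without it. Such regions were narrow in each class, with medians of 229, 257.5 and 246 bp in this order. They had 6.47, 8.52 and 7.41 factors on average. RUVBL2 was listed at 25.4% of the 59 members, and SRSF2 at 72.9%. More broadly, the 80 members without an R1 H3K4me3 peak had 6.09 ± 3.03 factors, against 4.61 ± 3.31 for the 673 with one. MED12 was listed at 46.3% of the 80 and 19.6% of the 673, PHF5A at 40% and 14.0%, and RUVBL2 at 28.8% and 50.4%. The 80 were also narrower, with a median width of 244.5 bp against 864 bp, and the number of factors went with width. SRSF2 was the most frequent factor in both, at 68.8% and 52.9%.

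The authors called 66.4% of the H3K4me3 peaks over members proximal, against 84.1% with H3K27ac; the distance this stands for is not given. The 448 members whose main H3K4me3 peak was proximal had a median width of 1204.5 bp and 4.47 ± 3.38 factors. The 225 with a distal peak had 412 bp and 4.88 ± 3.14. SMC3 was listed at 42.7% of the distal and 27% of the proximal members. RUVBL2 showed the opposite order, with 40.4% and 55.4%. Against regions with H3K27ac of the same group, 17 of 17 factors were less frequent in both, by -22.5 points on average for proximal and -14.9 points for distal regions.

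In the R1 lines the fold enrichment of H3K4me1 was higher in the catalytic-dead cells at the members. A fold enrichment is a relative value and does not give the amount of the mark. Over all H3K4me1 peaks of the R1 data the median log2 ratio was -0.21. Over the 752 peaks at members the wild-type median fold enrichment was 2.24 and the catalytic-dead median 4.62. The median log2 ratio there was 1.10, with quartiles of 0.85 and 1.35. The ratio was above 0 at 732 of 752 peaks, and the chromosome medians were above 0 on 20 of 20 chromosomes, from 0.96 to 1.36. The authors called 460 peaks (61.2%, interval 57.6 to 64.6%) increased, a rule of size at 2-fold or more and not a test, and 3 (0.399%) decreased. Of all H3K4me1 peaks in the R1 data, 15.2% were called increased and 28.4% decreased, and over proximal peaks alone 37.3% and 6.79%. The members' share called increased was thus above both backgrounds, but these were not chosen for a lack of H3K4me1. A low wild-type value raises the ratio. At both-mark regions without H3K27ac the median fold enrichment was 2.72 in the wild-type line and 4.23 in the catalytic-dead line. The members were thus lower in the wild-type line and higher in the catalytic-dead line. How far the choice of regions by H3K4me1 gave the difference from the backgrounds was not tested.

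A high ratio and a high share called increased were found at H3K4me3-only regions of either kind. With H3K27ac the median log2 ratio of H3K4me1 was 1.06, a difference in medians of 0.04 that is within its SD over chromosomes of 0.07. There 56.2% of peaks were called increased (interval 55.2 to 57.2%), below the share at the members (interval 57.6 to 64.6%). At both-mark regions without H3K27ac the median ratio was 0.71, and 27.4% of peaks were called increased. Among the members, proximal peaks had a median ratio of 1.14 and distal peaks of 0.96, with 65.4% and 47.5% called increased, against 37.3% and 5.66% of all proximal and distal peaks. The ratio varied little with the number of factors, with a median of 1.08 at members without a factor and 1.15 at members with 9 or more. Apart from chromosomes 1, X and Y, these values rest on the fold enrichments being put back in step with the peak positions. As deposited the median log2 ratio over the members is 0.05. On chromosomes 1, X and Y, which hold the same place in both orders, it is 1.25.

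H3K4me2 was higher in fold enrichment by a smaller amount. Over 687 peaks its median fold enrichment was 7.99 in the wild-type line and 9.63 in the catalytic-dead line, with a median log2 ratio of 0.29 and chromosome medians from 0.14 to 0.42. With H3K27ac the ratio was 0.23, from 8.92 to 10.6. At the members 14 peaks (2.04%) were called increased and 4 (0.582%) decreased, where the whole table had 1.91% and 23.0%. Proximal peaks over members gave 6 of 443 (1.35%) increased and 0 decreased, against 1.64% and 5.91% of all proximal peaks. Distal ones gave 8 of 244 (3.28%) increased and 4 (1.64%) decreased, against 2.05% and 31.8%. The share called increased was near the background, and the share called decreased was below it, as it was with H3K27ac (0.522%). With H3K27ac 0.298% were called increased (interval 0.193 to 0.461%), below the share at the members (interval 1.22 to 3.39%). In the deposited order of the values the median ratio has the opposite sign, at -0.06.

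H3K4me3 differed little in fold enrichment between the lines. Over 676 peaks the medians of fold enrichment were 12.6 (wild-type) and 12.7 (catalytic-dead), and the median log2 ratio was -0.03, with quartiles of -0.23 and 0.17. The chromosome medians were above 0 on 5 of 20 chromosomes and ran from -0.15 to 0.12. The ratio for regions with H3K27ac was -0.04. Of the members' peaks 4 (0.592%) were called increased and 10 (1.48%) decreased, against 3.15% and 4.48% of the table. At proximal peaks 1 of 449 was increased and 2 were decreased (backgrounds of 1.09% and 1.54%), and at distal peaks 3 of 227 (1.32%) and 8 (3.52%), with backgrounds of 5.04% and 7.17%. The level itself was lower than with H3K27ac, where the wild-type median was 15.6. At distal peaks over members the ratio was -0.14, lower than at proximal peaks, where it was 0.00, and its chromosome medians were below 0 on all 19 chromosomes with 5 or more such peaks. At distal peaks over regions with H3K27ac it was -0.12, with chromosome medians above 0 on 0 of 20 chromosomes.

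**Figure D5:**
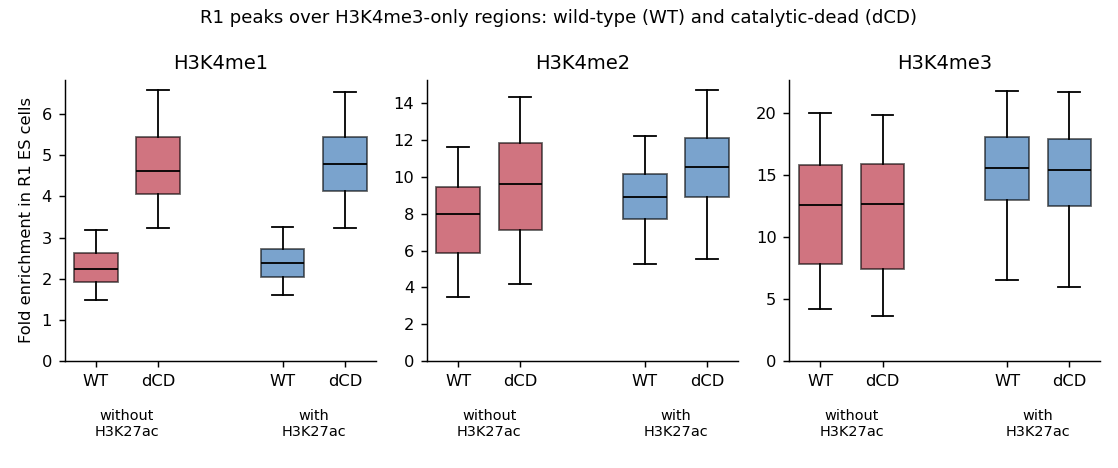
Fold enrichment of H3K4me1, H3K4me2 and H3K4me3 in wild-type (WT) and MLL3/4 catalytic-dead (dCD) R1 ES cells, at peaks over H3K4me3-only regions without and with H3K27ac; boxes are quartiles with the median, whiskers the 5th and 95th percentiles over peaks, and each panel has its own axis. In both classes the H3K4me1 boxes of the lines lie apart (2.24 and 4.62 without H3K27ac), while those of H3K4me3 overlap (12.6 and 12.7).

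Within the members the level of H3K4me3 went with width. Over 673 members Spearman's rho of width with the wild-type H3K4me3 fold enrichment was 0.69, and for H3K4me1 over 553 members it was 0.31. Members without a factor had a median H3K4me3 of 15.5 in wild-type cells, and members with 9 or more had 10.7. An H3K4me1 peak in R1 cells overlapped 91.5% of the members without a factor and 63.8% of those with 9 or more. These groups also differed in width, with medians of 2019 and 520 bp. The log2 ratios of H3K4me2 and H3K4me3 had a rho of 0.76 over 661 members and those of H3K4me1 and H3K4me2 of 0.52 over 550, values that share peaks and libraries and are given as descriptions.

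A few members differed far more between the lines. They are ranked by 1 peak per member and mark, the one with the largest overlap, so other peaks over the same member are not ranked. By this measure H3K4me1 differed most at chr2:122463597-122463827, at 0.98-fold in the wild-type line and 4.94-fold in the catalytic-dead line, a log2 ratio of 2.34. This region also had H3K4me2 called increased, at 4.75 and 11.3, while H3K4me3, at 9.56 and 13, was called unchanged. The next regions were chr2:43786697-43787342, with a ratio of 2.18, and chr9:104955565-104956341, with 1.91. The largest difference in the other direction was at chr4:133511138-133513909, at 2.78-fold in the wild-type line and 0.98-fold in the catalytic-dead line, a log2 ratio of -1.50. The next by this measure, chr4:151928516-151928764 at -0.81 and chr11:84908680-84908872 at -0.46, were not called decreased for H3K4me1.

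For H3K4me2 the highest log2 ratio, 1.42, was at chr3:54985660-54986757, with 4.47 in the wild-type line and 12 in the catalytic-dead line. All 3 marks were called increased there, and so were H3K4me1 and H3K4me2 at chr2:61885629-61885937, a region with no factor listed and an H3K4me2 ratio of 1.39. The lowest ratios of H3K4me2, with 1 peak per member, were -1.23 at chr5:90675861-90676231, -1.18 at chr3:51368225-51368536 and -0.95 at chr18:82929330-82930185.

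For H3K4me3 the highest ratio, 1.63, was at chr16:72785816-72786459, with 2.40 in the wild-type line and 7.41 in the catalytic-dead line, and H3K4me2 was called increased there as well, with a ratio of 1.39. Its only listed factor was BAF155, at a log2 enrichment of 0.61. The next, chr13:103601308-103601503 and chr5:38363182-38363651, had ratios of 1.54 and 1.12. The lowest ratio of H3K4me3 was -2.07 at chr7:14117912-14118176, with 4.98 in the wild-type line and 1.19 in the catalytic-dead line. It was followed by -1.62 at chr7:112411717-112412022 and -1.47 at chr18:82929330-82930185. The 2 regions on chr7 had no R1 peak of H3K4me1 or H3K4me2. All 6 of these H3K4me3 extremes lay in peaks called distal. The 18 highest and lowest values named for the 3 marks have no replicate check, and 6 of them keep their sign in the deposited order of the values.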

How the data were processed

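The members, factor sets and comparisons were chosen with earlier results of these data known. Per the submitters' processing notes the build was mm9; for the 129/Ola libraries they list Bowtie, Picard and MACS2 with no version, and for the R1 libraries MACS2 2.1.0.20150731, BWA 0.7.13-r1126, deepTools 2.5.1 and 2.5.3, and Picard 2.11.0. What each tool was used for is not stated. The region table that the authors deposited gives a log2 enrichment per region and factor; what it is relative to, and whether replicates were pooled, is not stated in the labels. The 3 R1 tables hold a fold enrichment (a ratio, FE per the file headers) for wild-type and catalytic-dead cells, a proximal or distal group and a class of change. That class was checked against the values: increased is a ratio of 2 or more and decreased its inverse, with 0 exceptions. Depth is unknown throughout. Nothing says that replicates came from separate cultures.

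Regions were labelled by the names listed at them. Of 31 names, 20 were used, and 11 that match no 129/Ola library in the labels were not used. The values of the R1 tables are out of step with the positions, since the rows are sorted with chromosome 10 after 1 and the values with chromosome 2 after 1. On chromosome 1, which the sorting does not touch, peak width and wild-type enrichment had a Spearman's rho of 0.215, 0.661 and 0.674 for H3K4me1, H3K4me2 and H3K4me3. On chromosomes 2 to 19 the mean rho was 0.00253, 0.00546 and -0.00380 as deposited and 0.253, 0.675 and 0.687 in number order, which was used. A peak was matched to a region at an overlap of 1 bp or more, each peak was counted once, and log2 ratios were taken without a pseudocount, with a 0 at 2 H3K4me2 peaks set to the smallest value above 0 divided by 2. Where 1 value per region was needed, the peak with the largest overlap was taken. Width classes are 10 equal classes of all H3K4me3-only regions, and weighting to width used their sizes. Order repair, matching and weighting were tested on simulated data. Named regions are the 5 with most factors, the 3 widest and the 3 highest and lowest log2 ratios of each mark. Alternatives covered the factor limit, width, the H3K27ac limit, the overlap, the pseudocount, centring and the order of the values. No genes were assigned to regions and no sequences were read, since no genome or annotation of mm9 was used here. Python 3.11.15, pandas 2.3.3, numpy 2.4.6 and scipy 1.17.1 were used.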

Additional observations from a re-analysis of the deposited data

How the results depend on the processing

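No paired analysis was possible because the tables give 1 value per factor, or per mark and line, and the columns carry no replicate number. For the same reason no library could be left out. Depth is unknown, so what it limits cannot be stated. A value is called moved where it left its 95% Wilson interval (shares) or its SD over chromosomes (medians and means). The median width stayed within that spread with the other H3K27ac limit (1008 bp) and with regions holding at least 1 factor (687 bp). Joining regions within 1 kb could change nothing, since the smallest gap was 1001 bp. The mean difference in factor share kept its sign. With factors counted at a log2 enrichment of 1 or more, the mean number of factors was 2.04 and the mean difference in share -10.4 points. Weighted to the widths of all H3K4me3-only regions, the mean number was 3.98, and the shares with an R1 H3K4me1, H3K4me2 or H3K4me3 peak were 88.3%, 96.6% and 96.3%. With H3K27ac below a log2 enrichment of 1 counted as absent, these shares were 80.7%, 92.4% and 91.6%, and an overlap of 50% or more of the region gave 55.9% for H3K4me1.

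The median log2 ratio of H3K4me1 was 0.84 with a pseudocount of 1, 1.31 with the table median set to 0, 1.25 on chromosomes 1, X and Y, and 0.054 in the deposited order of the values. That of H3K4me2 was 0.42 with the table median set to 0, 0.41 on chromosomes 1, X and Y, and -0.065 in the deposited order. That of H3K4me3 was 0.072 on chromosomes 1, X and Y. At distal peaks alone, an alternative chosen after seeing the data, the 3 medians were 0.96, 0.21 and -0.14. The differences between regions without and with H3K27ac were 0.14, 0.14 and 0.11 on chromosomes 1, X and Y, and the difference for H3K4me2 was -0.016 in the deposited order. In that order the named H3K4me1 extremes were -0.78, -0.89 and -0.55 for the 3 highest and 0.93 for the lowest. The named H3K4me2 values were -2.05 on chromosome 16 and 0.57 on chromosome 5, and those of H3K4me3 were -0.20 on chromosome 13, -0.42 on chromosome 5, 0.23 on chromosome 7 and 0.90 on chromosome 18. If the repaired order is right, the deposited order gives most peaks the value of another peak, so it is no independent check. Chromosomes 1, X and Y hold the same place in both orders, so their values do not depend on the repair.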

Other observations

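The share of H3K4me3-only regions that lacked H3K27ac differed between chromosomes. It ran from 6.73% on chromosome X, with 27 members, to 14.3% on chromosome 13, with 57 members. The members on X were the narrowest, with a median of 391 bp, and had the most factors, with a mean of 6.41. H3K4me3-only regions with H3K27ac were also narrowest on X, with a median of 987 bp, and had a mean of 8.36 factors there. On chromosome Y both of the H3K4me3-only regions lacked H3K27ac, with 7 factors listed at chrY:347039-347364 and 2 at chrY:581293-582172.

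Most members had no other member within 50 kb, though the median gap to the nearest region of any kind was 12003 bp. No such count was made for the other classes. With members joined at gaps of up to 50 kb, 706 were single, 12 pairs formed and 23 members lay in 5 runs of 3 or more. The longest run held 8 members between 21260194 and 21456260 on chromosome 13 (mm9), spanning 196 kb, with 0 to 4 factors each and 2 H3K4me3-only regions with H3K27ac among them. A second run on this chromosome, of 3 members between 21999188 and 22033214, had 0 factors at each. A run of 6 members on chromosome 18, between 37814510 and 37916251, had 4 to 10 factors each, and its mean of 7.5 was above the 4.77 of all members.

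Members lay farther from other listed regions, whatever their marks. The median gap to the nearest region of any kind was 12003 bp. It was 6049 bp for H3K4me3-only regions with H3K27ac and 6818 bp for both-mark regions without it. To the nearest region with H3K4me1 the median gap was 14292 bp, against 7069.5 bp and 7416.5 bp in the same order. A region with H3K4me1 lay within 5 kb of 215 members (28.6%), against 42.9% with H3K27ac. The 215 members with such a neighbour within 5 kb had a median width of 1123 bp and 4.13 ± 3.23 factors, and the 325 with none within 20 kb had 587 bp and 5.22 ± 3.28 factors.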
